A study of Mus musculus with 6 samples.

Results

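The 9 genes described here encode the tropomyosins and the actin-severing cofilins, with a kinase and a phosphatase that act on the cofilins. They were listed by identifier: TPM1 (ENSG00000140416), TPM2 (ENSG00000198467), TPM3 (ENSG00000143549), TPM4 (ENSG00000167460), CFL1 (ENSG00000172757), CFL2 (ENSG00000165410), DSTN (ENSG00000125868), LIMK1 (ENSG00000106683) and SSH1 (ENSG00000084112). All 9 were among the 30543 identifiers of the count table, and all 9 were among the 15736 genes that passed edgeR's filter on low counts. TPM4 and CFL2 were included because the study labels both in its own plot of the same comparison, so their large differences are a description of genes already known to stand out and not an independent finding. The other 7 genes are their relatives or regulators.

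CFPAC-1 is a human cell line of pancreatic adenocarcinoma (PAAD). The cells received either si-Control, a negative control siRNA (3 libraries), or si-KRT7, a siRNA against keratin 7, an intermediate filament protein of simple epithelia (3 libraries). Every library came from this same line and from a siRNA transfection. Polyadenylated RNA was sequenced on the DNBSEQ platform, and reads were counted per gene. The sample labels give the mouse as organism, whereas all 30543 identifiers are human. The study's supplement lists more than one KRT7 duplex, and which was used for these libraries and the time of harvest are not given in the sources used here. KRT7 itself, the other genes of actin turnover and the markers of ductal and other cell types were not analysed here, because the name tables used are those of the mouse and matched 0 of the identifiers.

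Actin filaments are built and taken apart continuously at the cell edge and in stress fibers. Tropomyosins are coiled-coil dimers that lie along the filament in a chain and govern which myosins and severing factors reach it. Proteins of the ADF/cofilin family bind aged filaments, sever them and release monomers, and tropomyosin on a filament generally limits their access. LIM kinases phosphorylate cofilin near its amino terminus and switch it off, whereas slingshot phosphatases such as SSH1 remove the phosphate and switch it on. RNA levels do not measure this phosphorylation. Each tropomyosin gene also gives several proteins through alternative promoters and exons, which a count per gene adds together.

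Total counts lay between 28208896 and 36315802 per library, and the 9 genes together took between 0.187% and 0.190% of the counts in si-Control and between 0.201% and 0.209% in si-KRT7. The libraries were distinct, since counts of the closest pair still differed by a mean chi-square of 3.70 per gene, and sampling alone would leave it near 1. Replicate 2 of si-KRT7 stood apart from replicates 1 and 3 over all genes (79.6 and 61.6, against 5.70 between replicates 1 and 3). By this measure it lay nearer to si-Control replicates 1, 2 and 3 (39.3, 44.6 and 33.0). Results that rest on it are therefore given with and without it. Replicate 2 was singled out from these same counts, so p-values and intervals without it are descriptive. In that fit 42.9% of all genes tested had an edgeR adjusted p under 0.05. Nothing in the labels says that replicates came from separate cultures, and p-values therefore measure only the spread between these libraries.

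In si-KRT7 cells TPM4 rose and CFL2 fell, whereas none of the other 7 genes passed the limit of an adjusted p under 0.05. TPM4 rose 2.45-fold and CFL2 fell to 0.343 of its si-Control level. Both also passed the limit of an absolute log2 fold change over 1. These are 2 of 9 genes (22.2%) by either limit, against 2.07% of all genes tested by the adjusted p and 0.292% by both limits. Since both genes were listed for their place in this comparison, nothing is read from that excess. Of the 7 remaining genes, 2 had a log2 fold change above 0 and 5 below 0, all between -0.19 and 0.45.

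**Figure D1:**
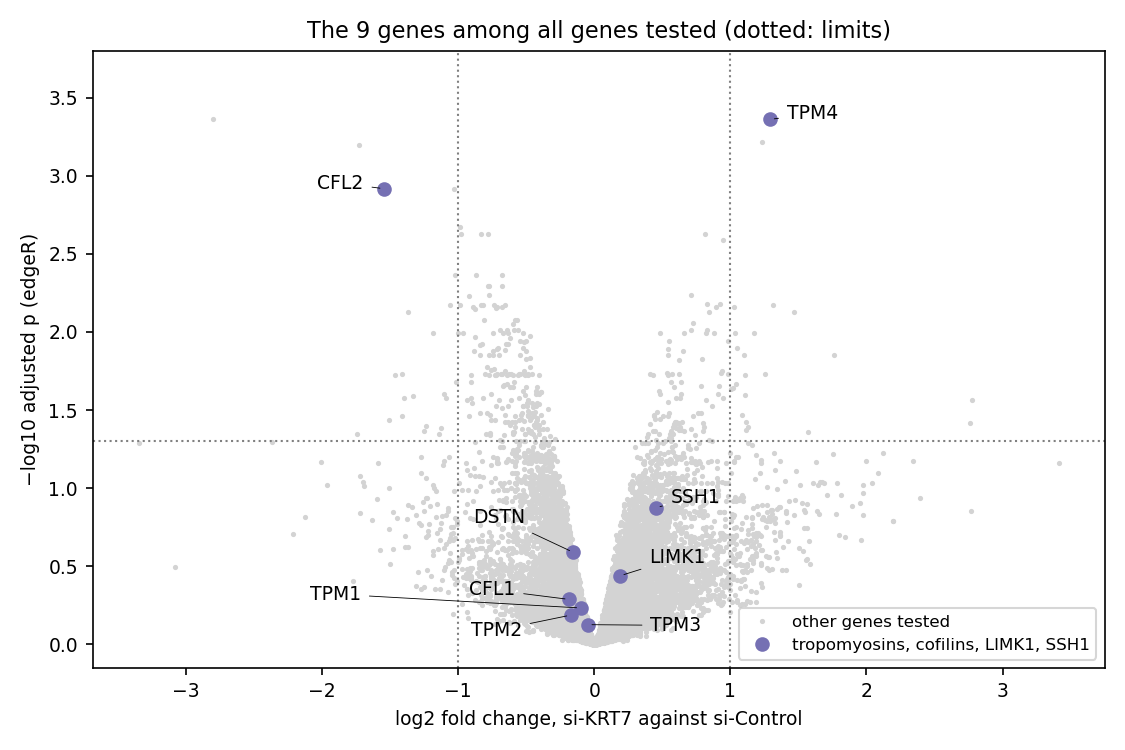
Each point is a gene tested, placed by its log2 fold change in si-KRT7 against si-Control cells (horizontal axis) and by the −log10 of its adjusted p from edgeR (vertical axis), with the 9 genes in purple and the limits dotted. TPM4 (log2 fold change 1.29) and CFL2 (-1.54) lie beyond the limits, and the other 7 lie below the line of an adjusted p of 0.05.

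TPM4, whose products include a short tropomyosin isoform of non-muscle cells, was measured with 5382 to 6211 reads in si-Control and 11448 to 16241 reads in si-KRT7 libraries. Its level was 176, 172 and 171 CPM (counts scaled to a common library size with TMM factors) in si-Control replicates 1, 2 and 3, and 437, 416 and 417 CPM in si-KRT7 replicates 1, 2 and 3. The lowest si-KRT7 library lay far above the highest si-Control library. Replicate 1 was the highest of each group, by little beside the difference between the groups. The log2 fold change was 1.29 (standard error 0.067, 95% interval 1.14 to 1.45, edgeR adjusted p = 4.36e-04), and TPM4 ranked 1 of 15736 by p. The libraries of a group differed from each other by a coefficient of variation of 1.60% in si-Control and 2.81% in si-KRT7, while counting error alone gives 0.785% to 1.36% for its read numbers.

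TPM3, whose products also include short non-muscle isoforms, stood at 364, 354 and 378 CPM in si-Control and at 357, 353 and 350 CPM in si-KRT7 replicates 1, 2 and 3. The ranges overlapped, and the log2 fold change was -0.05 with a 95% interval of -0.20 to 0.10 (edgeR adjusted p = 0.747). A change as large as that of TPM4 is far outside this interval. TPM3, CFL1 and DSTN have processed pseudogenes that may share reads with them, and how such reads were counted is not given in the sources used here, so their levels are uncertain to that extent. TPM1, whose products include muscle isoforms and long isoforms of stress fibers, lay at 46.4 to 51.7 CPM in si-Control and 44.2 to 48.5 CPM in si-KRT7. Its log2 fold change of -0.10 had an interval of -0.30 to 0.10 (edgeR adjusted p = 0.585).

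TPM2, a source of muscle isoforms and of a long isoform of non-muscle cells, was the least even of the tropomyosins. It stood at 61.0, 58.2 and 71.0 CPM in si-Control and at 47.8, 73.6 and 47.4 CPM in si-KRT7 replicates 1, 2 and 3. Replicates 1 and 3 of si-KRT7 lay below every si-Control library, whereas replicate 2 was the highest of all 6. The log2 fold change was -0.17 (95% interval -0.58 to 0.23, edgeR adjusted p = 0.649), and without si-KRT7 replicate 2 it was -0.41 (interval -0.55 to -0.27, adjusted p = 2.53e-05). Si-Control replicate 3 also lay above the other si-Control libraries, so that the spread of TPM2 was 10.6% in si-Control and 26.6% in si-KRT7, while its read numbers give counting errors of 2.12% to 2.62%.

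**Figure D2:**
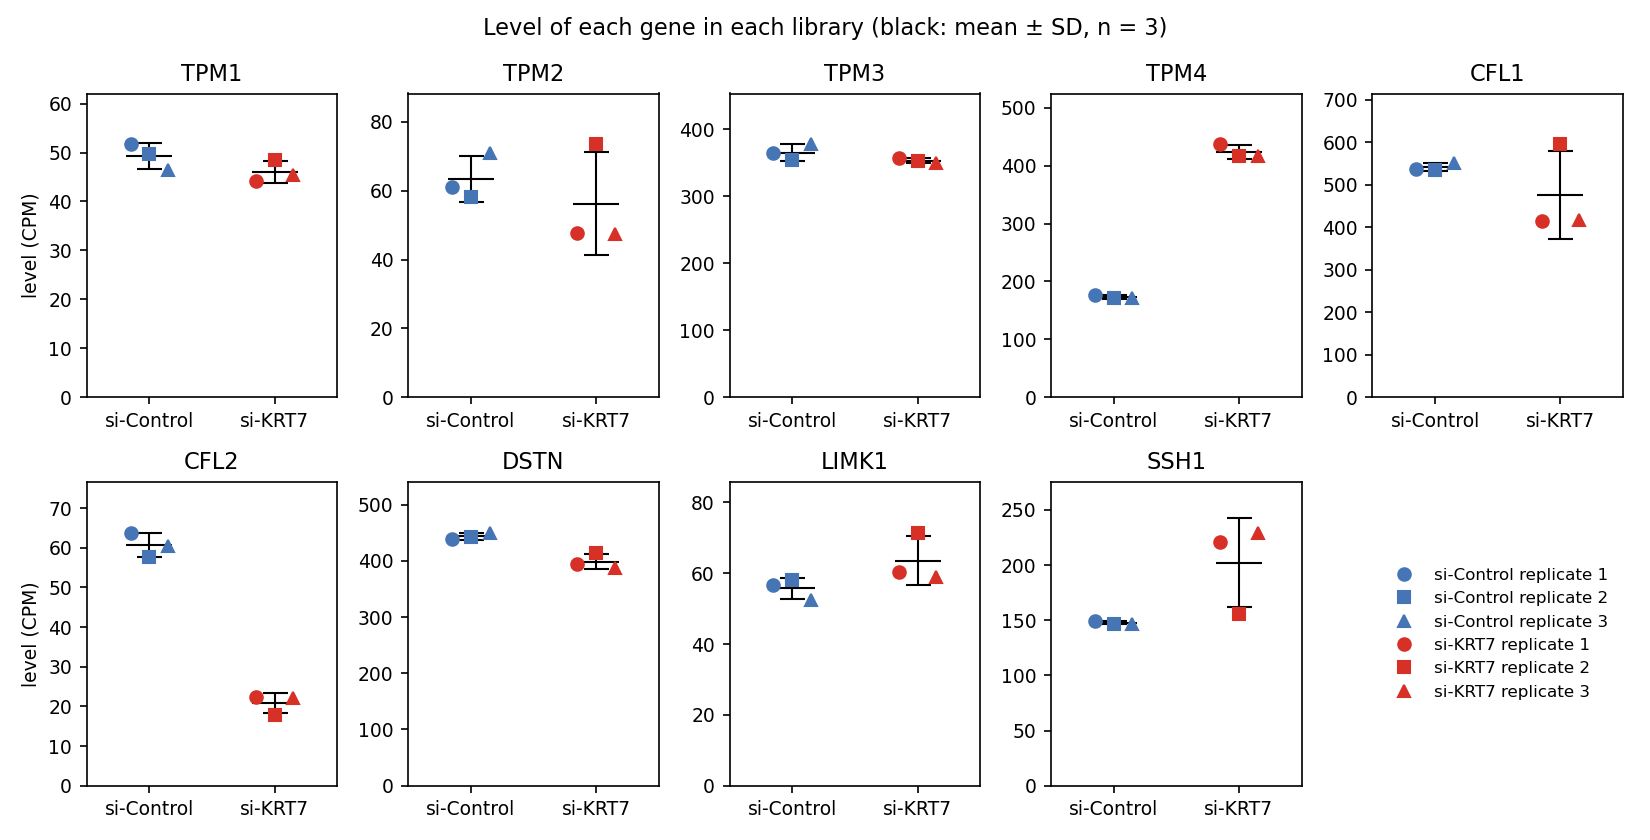
Level of each gene in CPM (vertical axes from 0, a scale of its own for each gene) in the 3 si-Control libraries (blue) and the 3 si-KRT7 libraries (red), with marker shapes for replicates and black bars for mean ± SD (n = 3). TPM4 and CFL2 separate the groups widely in all libraries, while in TPM2, CFL1 and SSH1 replicate 2 of si-KRT7 (red square) stands away from replicates 1 and 3.

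Summed over the 4 tropomyosin genes, si-Control libraries averaged 651 ± 16.8 CPM (SD, n = 3) and si-KRT7 libraries 879 ± 16.9 CPM (SD, n = 3), 1.35-fold higher. The groups did not overlap (two-sided exact permutation p = 0.1, the smallest that 3 libraries against 3 allow). TPM4, listed for its place in this comparison, is part of this sum, so the separation is not an independent finding. Without TPM4 the sum was 478 ± 17.0 CPM (SD, n = 3) and 456 ± 17.3 CPM (SD, n = 3), with overlapping groups (exact permutation p = 0.2). These sums count reads and not molecules, since gene lengths were not used.

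The make-up of the tropomyosin reads shifted accordingly. TPM4 held 27.0%, 27.1% and 25.7% of them in si-Control replicates 1, 2 and 3, and 49.4%, 46.7% and 48.5% in those of si-KRT7. TPM3 went from 56.1% ± 0.522 (SD, n = 3) to 40.2% ± 0.552 (SD, n = 3) of the family's reads without a called change in its own level. In si-Control each library held 0.452 to 0.485 TPM4 reads per TPM3 read, and in si-KRT7 between 1.18 and 1.23. This ratio is taken within a library and needs no scaling between libraries. Its log2 value differed by 1.34 between the groups (SD 0.057 in si-Control and 0.029 in si-KRT7, n = 3 each, exact permutation p = 0.1). Since TPM4 was listed for its place in this comparison, its ratios carry its own difference and are not an independent test. The log2 ratio of TPM4 to TPM1 differed by 1.39 (exact permutation p = 0.1), whereas that of TPM2 to TPM1 differed by -0.10 with overlapping groups (exact permutation p = 0.5). That last difference rested on single libraries, being -0.27 without si-KRT7 replicate 2 and 0.03 without si-Control replicate 3.

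**Figure D3:**
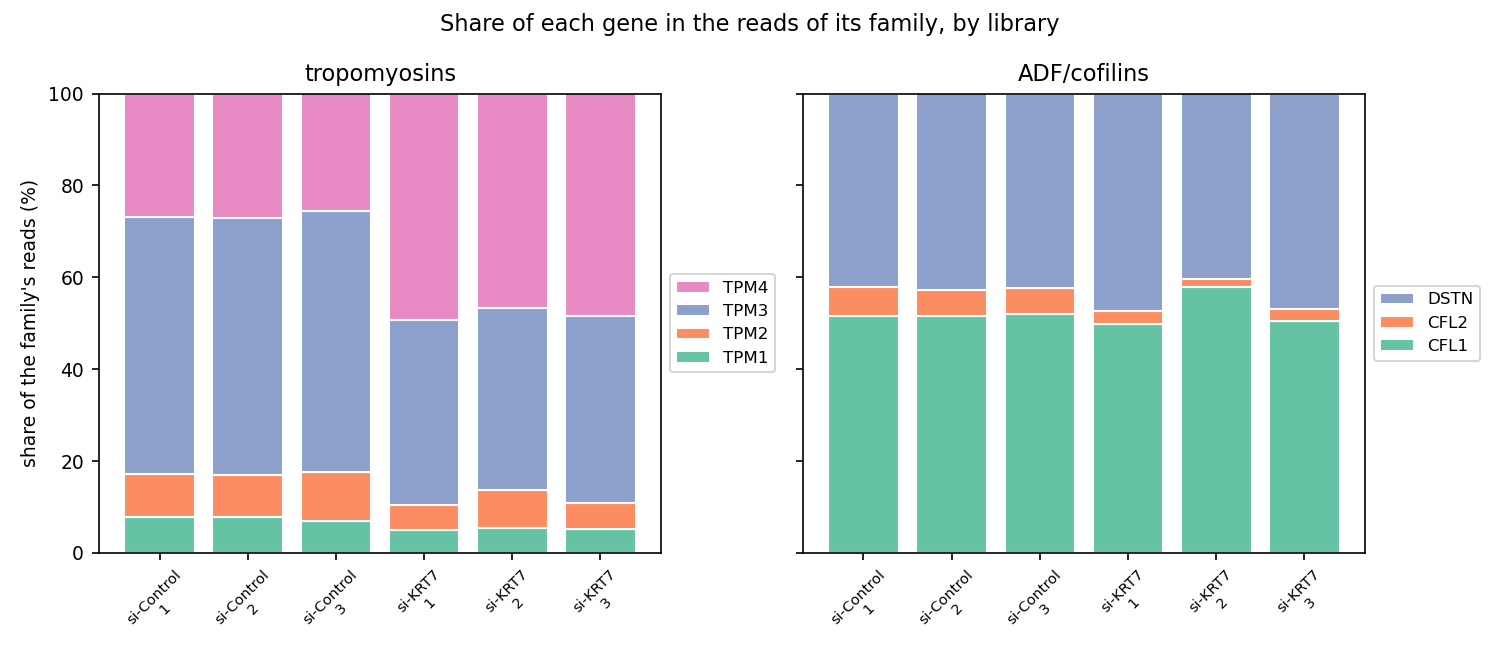
Stacked bars give, for each library, the percentage of the reads of the tropomyosin genes (left) and of the ADF/cofilin genes (right) that fell on each gene; they are shares of reads, not corrected for gene length. TPM4 takes 25.7% to 27.1% of tropomyosin reads in si-Control and 46.7% to 49.4% in si-KRT7, and CFL2 takes 5.58% to 6.14% and 1.73% to 2.68% of the ADF/cofilin reads.

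CFL2 encodes the cofilin that predominates in skeletal and heart muscle and is also made in other tissues. Its libraries held 1898 to 2202 reads in si-Control and 827, 490 and 683 reads in si-KRT7 replicates 1, 2 and 3. The level was 63.8, 57.7 and 60.3 CPM in si-Control and 22.3, 17.8 and 22.2 CPM in si-KRT7. All si-KRT7 libraries lay below all si-Control libraries, with replicate 2 the lowest at 29.4% of the si-Control mean and replicates 1 and 3 at 36.7% and 36.6%. The log2 fold change was -1.54 (standard error 0.11, 95% interval -1.80 to -1.29, edgeR adjusted p = 0.00121), which ranked 5 of 15736 by p. CFL2 and LIMK1 were the genes in which replicate 2 lay on the same side of si-Control as replicates 1 and 3 and farthest from it.

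CFL1, the cofilin of non-muscle cells, behaved differently between the si-KRT7 libraries. It stood at 537, 534 and 552 CPM in si-Control and at 416, 595 and 417 CPM in si-KRT7 replicates 1, 2 and 3. Replicates 1 and 3 were at 76.8% and 77.0% of the si-Control mean and below all si-Control libraries, whereas replicate 2 was at 110% and above all of them. With all libraries the log2 fold change was -0.19 (95% interval -0.50 to 0.13, edgeR adjusted p = 0.515). Without si-KRT7 replicate 2 it was -0.38 (interval -0.45 to -0.32, adjusted p = 9.03e-10). Counting error was at most 0.883% in any library, far under the 21.8% by which the si-KRT7 libraries varied.

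DSTN encodes destrin, also called actin-depolymerizing factor, which favors release of monomers. It lay at 438, 442 and 450 CPM in si-Control and at 395, 414 and 387 CPM in si-KRT7 replicates 1, 2 and 3. The groups did not overlap, with every si-KRT7 library at 87.3% to 93.3% of the si-Control mean. The log2 fold change of -0.15 had a 95% interval of -0.30 to -0.0038. It did not pass after adjustment over all genes, with an edgeR p of 0.0456 and an adjusted p of 0.258. Without si-KRT7 replicate 2 it was -0.18 (adjusted p = 3.87e-05).

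Together the ADF/cofilin genes held 1038, 1034 and 1062 CPM in si-Control and 833, 1027 and 826 CPM in si-KRT7 replicates 1, 2 and 3. Replicates 1 and 3 lay well below si-Control, and replicate 2 lay just under its lowest library (exact permutation p = 0.1). CFL2, listed for its place in this comparison, is part of this sum. On the log2 scale the si-KRT7 mean was lower by -0.22, and without replicate 2 by -0.34. Within libraries, the log2 ratio of CFL2 to CFL1 reads differed by -1.35 between the groups and that of CFL2 to DSTN by -1.40, both without overlap (exact permutation p = 0.1 for each). These ratios carry the difference for which CFL2 was listed and are not an independent test either. The number of CFL2 reads per CFL1 read was 0.108 to 0.119 in si-Control, 0.0536 and 0.0533 in si-KRT7 replicates 1 and 3, and 0.0300 in replicate 2. The ratio of DSTN to CFL1 lay closely together in si-Control (SD 0.011 on the log2 scale, n = 3), while in si-KRT7 replicates 1 and 3 lay above and replicate 2 below that range (difference 0.05, exact permutation p = 1). This difference was 0.20 without si-KRT7 replicate 2, -0.03 without replicate 1 and -0.01 without replicate 3.

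**Figure D4:**
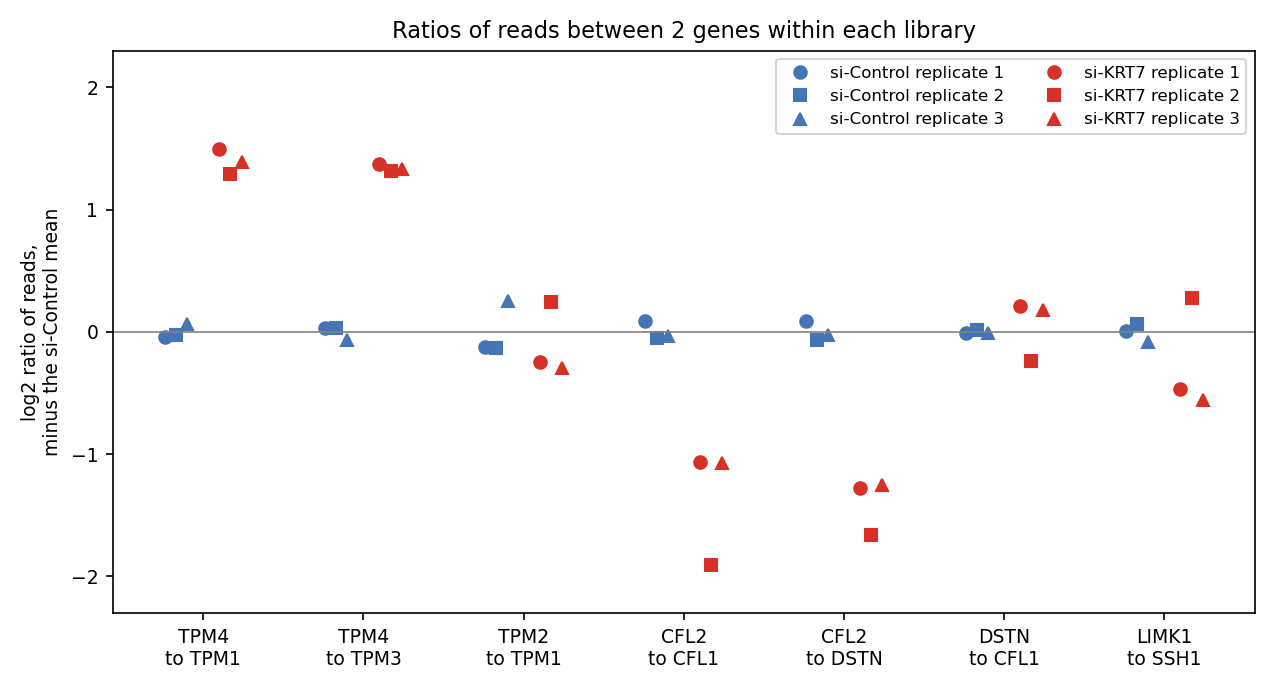
For 7 pairs of genes, the log2 ratio of their reads within each library (vertical axis) is shown as its distance from the si-Control mean, in blue for si-Control and red for si-KRT7, with marker shapes for replicates. The ratios of TPM4 to TPM1 and TPM3 are higher by 1.39 and 1.34 and those of CFL2 to CFL1 and DSTN lower by -1.35 and -1.40 in si-KRT7, whereas the groups overlap in the other 3 pairs.

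Of the regulators, LIMK1, the kinase that inactivates cofilin, stood at 56.7, 58.2 and 52.5 CPM in si-Control and at 60.4, 71.5 and 58.9 CPM in si-KRT7 replicates 1, 2 and 3. Every si-KRT7 library lay above every si-Control library, though replicate 3 did so narrowly, and replicate 2 was the highest. The log2 fold change was 0.19 (95% interval -0.04 to 0.42, edgeR adjusted p = 0.364). Without si-KRT7 replicate 2 it was 0.09 (interval -0.02 to 0.21, adjusted p = 0.199).

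SSH1, the slingshot phosphatase that reactivates cofilin, was at 149, 147 and 147 CPM in si-Control and at 221, 156 and 229 CPM in si-KRT7 replicates 1, 2 and 3. The groups did not overlap. Replicates 1 and 3 were at 150% and 155% of the si-Control mean, but replicate 2 was at 106%. The si-Control libraries varied by only 0.833%, less than the counting error of 1.37% to 1.47%, and the si-KRT7 libraries by 19.9%. With all libraries the log2 fold change was 0.45 (95% interval 0.14 to 0.77), with an edgeR p of 0.0100 and an adjusted p of 0.133. Without si-KRT7 replicate 2 it was 0.61 (interval 0.53 to 0.68, adjusted p = 3.83e-12).

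The balance of kinase to phosphatase reads followed the same division. There were 0.357 to 0.396 LIMK1 reads per SSH1 read in si-Control, 0.273 and 0.257 in si-KRT7 replicates 1 and 3, and 0.458 in replicate 2. The log2 ratio differed by -0.25 (exact permutation p = 0.4), by -0.51 without si-KRT7 replicate 2, and by -0.14 and -0.09 without replicates 1 and 3. Replicates 1 and 3 thus lay below and replicate 2 above all si-Control libraries.

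In the edgeR fit, the call of 4 of the 9 genes changed when replicate 2 of si-KRT7 was left out. Without it, TPM2, CFL1 and DSTN were called lower and SSH1 higher in addition to TPM4 and CFL2, 6 of 9 genes (66.7%), with 3 genes not called (TPM1, TPM3 and LIMK1). In that fit 42.9% of 16202 genes had an adjusted p under 0.05 and 2.20% passed both limits, among them again TPM4 and CFL2. The larger number of members is therefore to be read against a background that grew as well. Nothing is read from the excess, since TPM4 and CFL2 were listed for this comparison and the background is not matched for level. The biological coefficient of variation, the spread between libraries of a group beyond counting, was 0.130 with all 6 libraries and 0.0485 without this one. TPM4 and CFL2 kept nearly the same size without it (log2 fold changes 1.30 and -1.45). DSTN also moved little (-0.15 with all 6 libraries, -0.18 without replicate 2), while its standard error went from 0.066 to 0.031. SSH1 was called with all 6 libraries in the DESeq2 Wald test (adjusted p = 0.0349) and in edgeR without a filter on counts (adjusted p = 0.00115). Why replicate 2 differs was not tested.

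**Figure D5:**
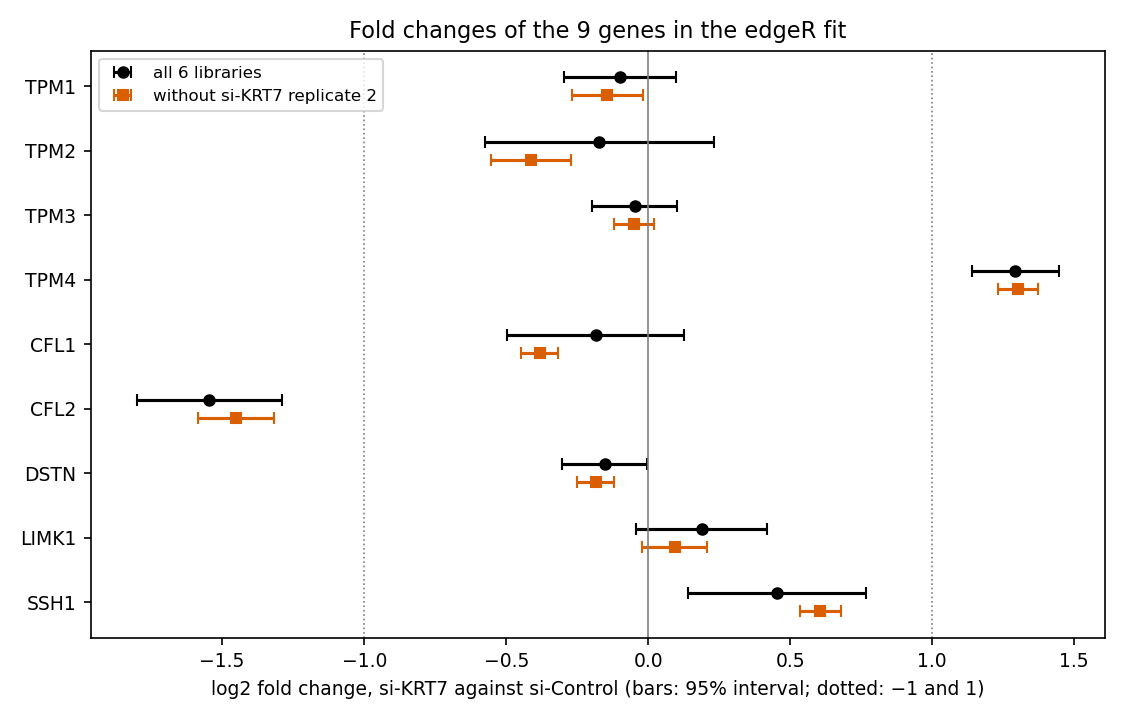
Log2 fold change of each gene in si-KRT7 against si-Control cells (horizontal axis) with its 95% interval, with all 6 libraries (black) and without si-KRT7 replicate 2 (orange). The intervals of TPM4 (1.14 to 1.45) and CFL2 (-1.80 to -1.29) lie beyond 1 and -1 with all libraries, and leaving out replicate 2 moves TPM2, CFL1 and SSH1 away from 0.

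Over the 9 genes the median log2 fold change was -0.10 and the median of its absolute size 0.19, against 0.01 and 0.18 over all genes tested. Without si-KRT7 replicate 2 these medians were -0.14 and 0.38 over the 9 genes and -0.01 and 0.25 over all genes. The groups of libraries did not overlap in 5 of the 9 genes (55.6%: TPM4, CFL2, DSTN, LIMK1 and SSH1), where 24.4% of all genes tested did not overlap. Without si-KRT7 replicate 2 they did not overlap in 8 of the 9 (88.9%, all but TPM3), where 60.6% of all genes did not. Neither excess is read as a property of these genes, since TPM4 and CFL2 were listed for their place in this comparison. The background is also not matched for level: by abundance the 9 genes ranked from 251 (CFL1) to 5143 (CFL2) of 15736. In bulk RNA of this kind, a change in every cell cannot be told apart from a change in a part of the cells.

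Over the 6 libraries, the genes whose log2 CPM resembled TPM4 most closely among 12461 others were ENSG00000166197 and ENSG00000165125 (Pearson r of 0.998 for both), and those closest to CFL2 were ENSG00000121152 and ENSG00000165672 (r of 0.9996 for both). Their log2 fold changes were 1.23 and 0.93 for TPM4 and -0.38 and -0.48 for CFL2, and the gene at -0.38 was not called (edgeR adjusted p = 0.0547). The difference between the groups enters such a correlation, and its part was not computed. In all, 20 and 54 genes exceeded an r of 0.99 with TPM4 and CFL2.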

How the data were processed

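For the 6 libraries the authors deposited unnormalized counts, whole numbers of reads for each gene identifier. The submitters' processing notes name STAR 2.7.11b and the mouse build GRCm39, although the identifiers are human. The counting tool and the human annotation are not given in the sources used here. No per-sample column was left unused.

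Counts were filtered with filterByExpr, scaled with TMM and tested in R 4.3.3 with edgeR 4.0.16 (glmQLFit, glmQLFTest, Benjamini-Hochberg adjustment over all genes tested), after a check on simulated counts. A gene was called at an adjusted p under 0.05, and passed both limits where its log2 fold change also exceeded 1 in absolute size. Standard errors were derived from the F statistic, and intervals from the t distribution. Similar patterns used log2 CPM (prior count 2) and genes with a mean of at least 50 counts. Ratios used an offset of 0.5 counts. Alternatives used DESeq2 1.42.0 and limma 3.58.1. Symbols are those paired with the identifiers in the list of members. All 9 listed genes were to be named. Members, lists and tests were chosen with earlier results of these data known.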

Additional observations from a re-analysis of the deposited data

How the results depend on the processing

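All 9 log2 fold changes kept their direction in each of their 15 alternatives. TPM4 (1.27 to 1.31, adjusted p at most 0.0148) and CFL2 (-1.60 to -1.45, adjusted p at most 0.0260) passed both limits in all 15, and TPM1, TPM3 and LIMK1 passed the adjusted p in none. TPM2, CFL1 and DSTN passed it without si-KRT7 replicate 2 and with limma-voom sample quality weights. SSH1 passed it in these and in the DESeq2 Wald test (adjusted p = 0.0349) and without a filter on counts (adjusted p = 0.00115). Its adjusted p ran from 3.83e-12 to 0.399 over the alternatives.

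The number of the 9 genes past both limits was 2 throughout. With an adjusted p under 0.05 it was 6 with sample quality weights, and 2 to 6 when single libraries were left out in turn. Over all genes, 46 passed both limits and 325 the adjusted p. These were 74 and 941 in the DESeq2 Wald test, 443 and 6858 with sample quality weights, 154 and 1347 without a filter, and 6 to 356 and 6 to 6944 with a library left out, the highest without si-KRT7 replicate 2. An unadjusted p under 0.05 with the fold change limit gave 274. With the replicate block, 25 and 76 genes passed and the same 2 members did. Between the si-Control and si-KRT7 library of each replicate number, deviations correlated at 0.0520, -0.0798 and -0.0728. These values cannot decide whether such libraries were paired, because si-KRT7 replicate 2 stands apart and weighs on the mean of its group. The labels give a replicate number and state no pairing. The cause of the differences between settings was not tested. The lowest count of a member in any library was 490.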
